A study of Mus musculus with 14 samples.

Results

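The genes described here bring amino acids, nucleosides and iron into the cell. They were chosen by name as 9 mouse genes (Slc7a5, Slc3a2, Slc1a5, Slc38a1, Slc38a2, Slc7a1, Slc7a6, Slc29a1 and Tfrc), and all 9 are present among the 46078 genes of the count table. RNA was sequenced from immature NK cells (iNK) and immature group 1 innate lymphoid cells (iILC1) of mouse bone marrow, each sample made from 2000 sorted cells. The mice were C57BL/6 and 8 weeks old. Every mouse carried 1 floxed and 1 null Il15 allele (Il-15-flox/KO), the controls included. The knockout mice (cKO) also carried Vav-Cre, a recombinase active throughout the blood lineage, so that blood cells lose the remaining allele while other cells keep it. There were 3 control and 4 cKO libraries of each cell type. iNK were sorted as CD3-negative, NK1.1-positive cells that lacked IL-7Ra and CD11b and carried DX5 and CD27. iILC1 were CD3-negative and carried NK1.1, IL-7Ra and CD49a. Whether the replicates of a group are different mice is not stated in the labels, and p-values then cover only the spread between these samples.

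Cells that grow and divide need more amino acids than they make. The large neutral amino acid carrier LAT1 is a pair of a light chain, SLC7A5, and a heavy chain, SLC3A2 (CD98), and exchanges intracellular glutamine for leucine and other essential amino acids, which are sensed by the kinase complex mTORC1. In NK cells, cytokines that include IL-15 are known to raise this carrier and the transferrin receptor CD71, the product of Tfrc, through which iron-loaded transferrin is taken up. SLC29A1 (ENT1) lets nucleosides cross the membrane in either direction and feeds the salvage of nucleotides.

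The libraries held 3512796 to 12572326 counts, the control iILC1 libraries being the shallowest (3512796 to 4933284). Levels are given as CPM (counts scaled to a common library size, with TMM factors), and fold changes come from edgeR's quasi-likelihood test over 26990 genes, called at an adjusted p under 0.05. The labelled cell types were met by genes outside the gates: Eomes, an NK cell factor, averaged 731 and 804 CPM in control and cKO iNK and 132 and 94.3 CPM in control and cKO iILC1, and Tnfsf10 was higher in iILC1 of both genotypes. Il15 itself was low throughout, at 8.16 to 11.1 CPM in control iNK, 8.58 to 12.3 in cKO iNK, 11.7 to 13.8 in control iILC1 and 11.2 to 25.0 in cKO iILC1. Its reads were counted over the whole gene, with no separate value for the floxed part, and the genotypes' ranges overlapped. Il15 thus did not check the genotype labels. Olfactory and vomeronasal receptor genes, which blood cells do not use, summed to 1621 to 3539 CPM per library, a measure of background reads. Per kilobase of exon, 95% of these 1669 genes lay under 3.65 CPM in control iNK, 4.58 in cKO iNK, 4.87 in control iILC1 and 4.92 in cKO iILC1.

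Against that background, the uptake genes spanned a wide range. Slc38a2, which carries glutamine and alanine with sodium, stood highest per length in control iNK at 82.8 ± 15.5 CPM per kb (SD, n = 3), followed by the glutamine exchanger Slc1a5 (ASCT2) at 72.8 ± 7.51. The level per kb was 40.8 ± 11.2 for Slc3a2 and 33.4 ± 7.34 for the glutamine carrier Slc38a1. Neither pair of neighbours was separated by more than its SDs. Slc7a5 (18.0 ± 2.78), Slc7a6 (15.4 ± 1.57) and Slc29a1 (12.5 ± 1.73) came next. Tfrc (8.36 ± 1.32) and the cationic amino acid carrier Slc7a1 (5.75 ± 0.913) were lowest. All 9 were above the receptor genes' 95th percentile in control iNK, and 6 were above it in all 4 groups. The exceptions were Slc7a1 and Tfrc in both iILC1 groups and Slc7a5 in cKO iILC1, whose 4.91 CPM per kb lay at the limit of 4.92. How much of the reads of these 3 genes in iILC1 was background was not tested, and their fold differences are given on counts from which none was removed.

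**Figure D1:**
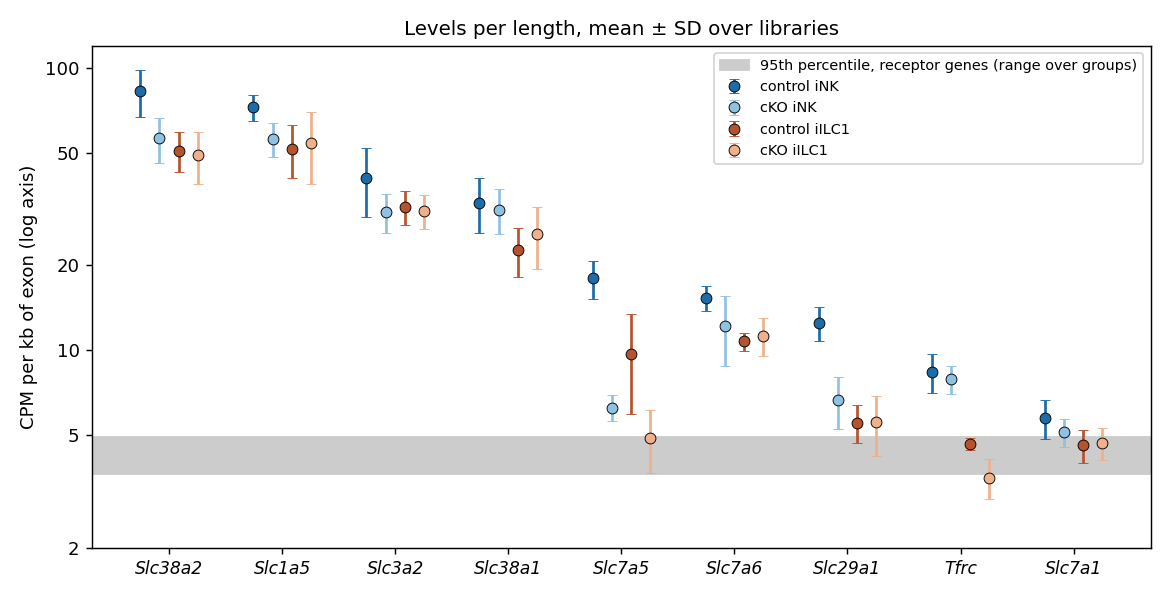
Mean level of each uptake gene in CPM per kb of exon (log axis), with SD over 3 control or 4 cKO libraries, in the 4 groups; the grey band is the range over groups of the 95th percentile of olfactory and vomeronasal receptor genes (3.65 to 4.92). Slc38a2, Slc1a5, Slc3a2 and Slc38a1 lie far above the band in every group, while Slc7a1, Tfrc in iILC1 and Slc7a5 in cKO iILC1 reach it.

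The first question was whether loss of Il15 from blood cells changed the uptake genes in each cell type. In iNK, Slc7a5 fell from 66.9 ± 10.3 CPM in control (n = 3) to 23.3 ± 2.43 CPM in cKO (n = 4). It was the only one of the 9 genes called in that comparison (1 lower, 0 higher), where 0.408% of all genes tested were called and 0.252% were called lower. All 9 estimates lay below 0, with a median log2 fold change of -0.37 beside 0.06 over all genes. With the background sum as a covariate the median was -0.25, and 8 lay below 0 and 1, Slc38a1, above (0.13). In iILC1 no uptake gene was called (0 of 9, beside 0.0482% of all genes; 1 of 9 at an unadjusted p under 0.05, and 1 with DESeq2). There the median was 0.01 beside 0.015 over all genes, and 5 estimates lay above 0 and 4 below (2 above and 7 below with the covariate, median -0.08). The 9 genes' groups did not overlap for Slc7a5, Slc1a5 and Slc29a1 in iNK (8.84% of all genes) and for Slc7a5 and Tfrc in iILC1 (5.48% of all genes).

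Slc7a5 (ENSMUSG00000040010, chr8:121881150-121907694, minus strand, mm10) read 56.1, 68.0 and 76.6 CPM in the control iNK libraries and 20.3, 22.3, 25.9 and 24.5 CPM in the cKO iNK libraries. The lowest control library was 30.2 CPM above the highest cKO library. The log2 fold change was -1.52 (SE 0.24, 95% interval -2.02 to -1.03, adjusted p = 0.000815), a 2.87-fold difference, which ranked 27 by p among the genes tested. In iILC1 the controls read 24.0, 32.6 and 51.1 CPM and the cKO libraries 12.4, 16.9, 22.0 and 21.6 CPM. These groups did not overlap either, with a gap of 2.03 CPM. The log2 fold change there was -0.99 (SE 0.25, unadjusted p = 0.000412) and did not pass after adjustment (adjusted p = 0.26). DESeq2 called it (adjusted p = 0.0396), and over 15 alternatives its adjusted p ran from 0.0305 to 1. The difference between the effects in the 2 cell types was not called (log2 0.53, SE 0.35, adjusted p = 0.723), so the data do not show that Slc7a5 responded differently in iNK and iILC1.

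The order of Slc7a5 over the groups was control iNK, control iILC1, cKO iNK and cKO iILC1. The lowest control iILC1 library (24.0 CPM) lay within the range of cKO iNK, and the cKO ranges overlapped each other. iILC1 read lower than iNK in control mice by a log2 of -0.89 (SE 0.26, adjusted p = 0.0516), just short of the threshold, and in cKO mice by -0.36 (SE 0.23, adjusted p = 0.75). The first of these passed in 8 of 14 alternatives, where its adjusted p ran from 0.00189 to 0.244. The comparison between genotypes in iNK and the comparison between cell types in control mice share the control iNK libraries, so that their values are not independent.

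The partner chain Slc3a2 (ENSMUSG00000010095, chr19:8706882-8723369, minus strand), which brings SLC7A5 and 5 other light chains to the surface, did not differ by a called amount in any comparison. Its control iNK libraries read 113, 157 and 91.8 CPM and its cKO iNK libraries 94.2, 80.2, 80.8 and 111 CPM. The groups overlapped, and the log2 fold change was -0.40 (95% interval -0.83 to 0.04, adjusted p = 0.675). In iILC1 it was 95.2 ± 13.0 CPM in control (n = 3) and 92.4 ± 12.6 CPM in cKO (n = 4). The interval in iNK allows anything from a fall of 0.83 to a rise of 0.04 on the log2 scale.

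Taken within each library, where scaling cancels, the ratio of Slc7a5 to Slc3a2 per kb was 0.469 ± 0.172 in control iNK (n = 3) and 0.206 ± 0.0398 in cKO iNK (n = 4). It ran from 0.346 to 0.666 in the first group and from 0.172 to 0.255 in the second, without overlap. An exact two-sided permutation test gave p = 0.0286, the smallest that 3 against 4 libraries allow, and 0.114 after adjustment over the 12 ratio tests made. In iILC1 the ratio was 0.305 ± 0.116 and 0.163 ± 0.0574 in control and cKO, and the ranges overlapped. Among the 6 light chains that pair with SLC3A2 (those of Slc7a5, Slc7a6, Slc7a7, Slc7a8, Slc7a10 and Slc7a11), Slc7a5 held 45.5% to 46.9% of the summed level per kb in control iNK and 18.9% to 29.1% in cKO iNK (exact permutation p = 0.0286, adjusted p = 0.114). It held 33.0% ± 8.67 in control iILC1 (n = 3) and 21.7% ± 5.58 in cKO iILC1 (n = 4). Slc7a6 (y+LAT2), the light chain that trades cationic for neutral amino acids, was the other light chain above background, and read 57.3 ± 5.85 and 45.6 ± 12.7 CPM in iNK of control (n = 3) and cKO (n = 4) mice and 40.1 ± 2.98 and 42.1 ± 6.34 CPM in their iILC1. Its groups overlapped in 3 of the 4 comparisons. The exception was iILC1 against iNK in control mice, where its log2 fold change of -0.51 was not called (adjusted p = 0.217).

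The 3 glutamine carriers did not pass in any comparison in the main edgeR fit. Slc38a2 came nearest, between cell types in control mice (log2 -0.70, SE 0.24, adjusted p = 0.103), where DESeq2 called it lower in iILC1 (adjusted p = 0.0213). That difference passed in 4 of 14 alternatives, with adjusted p from 0.0213 to 0.485. Besides DESeq2, these were edgeR fits with the filter at 5 CPM, with the replicate block and without control iNK replicate 3. Slc38a2 read 454, 384 and 311 CPM in control iNK and 254, 214, 250 and 328 CPM in cKO iNK. Of these, 1 cKO library exceeded the lowest control, and the log2 fold change was -0.55 (SE 0.22, unadjusted p = 0.0202, adjusted p = 0.501). Slc38a2 is held down when amino acids are plentiful and raised by the factor ATF4 when they are scarce. Slc1a5 read 316, 324 and 267 CPM in control iNK and 259, 199, 214 and 263 CPM in cKO iNK. Its groups were separated by 4.13 CPM, and the log2 fold change of -0.37 had an interval from -0.84 to 0.10 (adjusted p = 0.721). Slc38a1 read 330, 299 and 211 CPM in control iNK and 306, 196, 269 and 287 CPM in cKO iNK, and its log2 fold change was -0.08 (adjusted p = 0.957).

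The ratio of Slc38a2 to Slc38a1 per kb was 2.33 to 2.67 in control iNK and 1.51 to 2.07 in cKO iNK (exact permutation p = 0.0286, adjusted p = 0.114). It was 2.27 ± 0.365 in control iILC1 (n = 3) and 1.92 ± 0.241 in cKO iILC1 (n = 4), and overlapped there. In iILC1 the genotype moved none of the 3 carriers by a called amount, with log2 fold changes of 0.07 for Slc1a5, 0.19 for Slc38a1 and -0.06 for Slc38a2. In cKO iILC1, the same library was highest for all 3 (316, 295 and 290 CPM). That library, replicate 1, had 10308693 counts and a receptor background of 1881 CPM, below the 2890 to 3437 CPM of the other cKO iILC1 libraries. With the background sum as a covariate, the genotype effects in iILC1 were -0.08 for Slc1a5, 0.03 for Slc38a1 and -0.19 for Slc38a2. Without that library and control iNK replicate 1 (1621 CPM), each the lowest of its group in background, they were -0.14, 0.00369 and -0.20. Control iNK replicate 2, at 1857 CPM, was kept in that fit.

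Slc7a1 (CAT1), which takes up arginine and lysine, read 66.3 ± 10.5 and 59.3 ± 6.65 CPM in iNK of control (n = 3) and cKO (n = 4) mice and 53.1 ± 7.02 and 54.1 ± 7.02 CPM in their iILC1. Its groups overlapped in all 4 comparisons, and its log2 fold changes ran from -0.32 to 0.03. It lay close to background per kb in all groups.

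**Figure D2:**
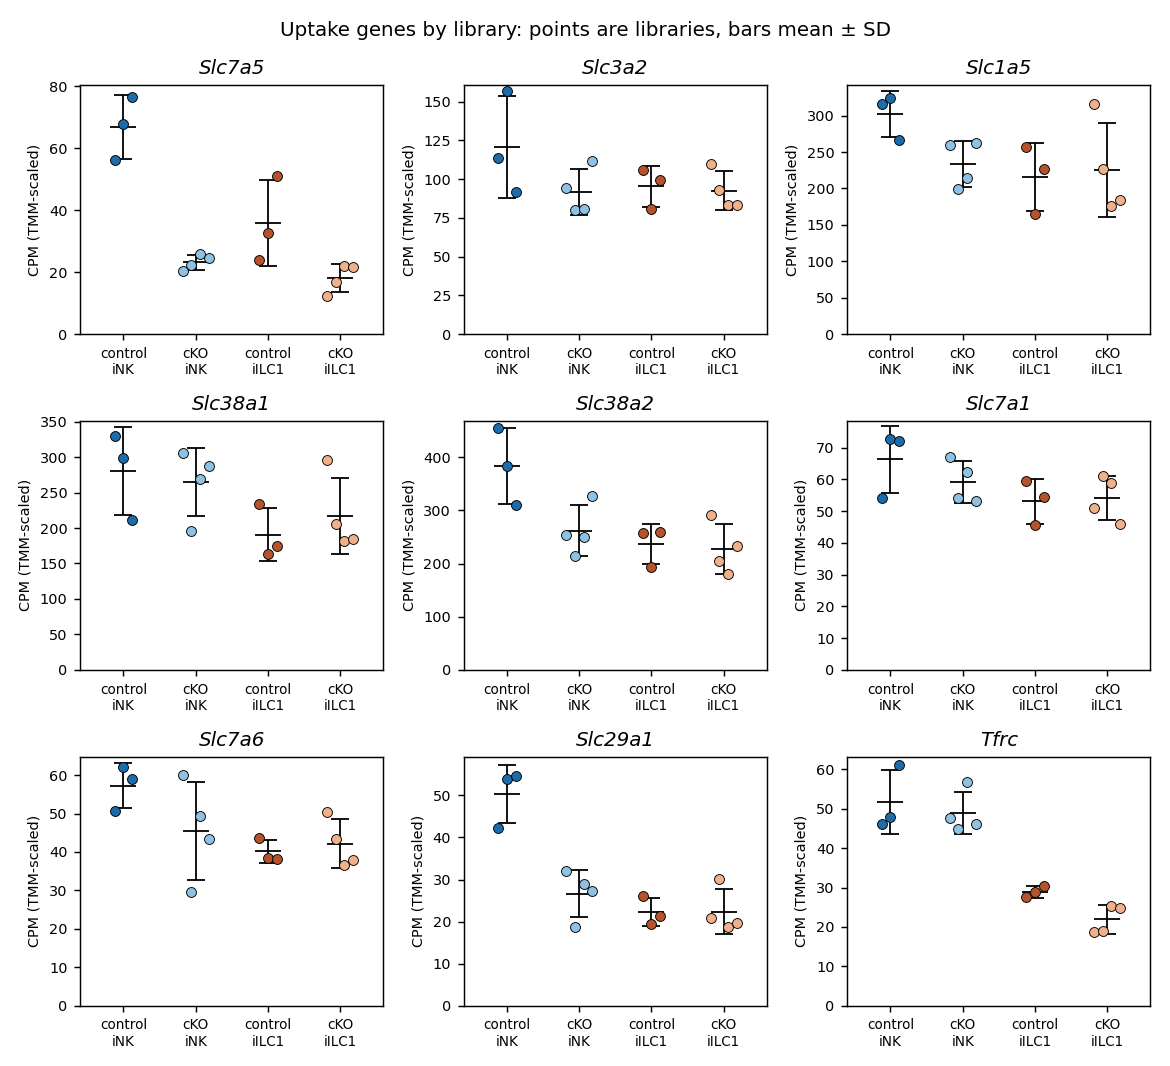
Level of each uptake gene in TMM-scaled CPM (each panel has its own axis from 0), 1 point per library, with the mean and SD of each group. Slc7a5 is high in the 3 control iNK libraries and lower in all 4 cKO iNK libraries, Slc29a1 is high in control iNK alone, and Tfrc separates iNK from iILC1 in both genotypes.

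Slc29a1 (ENSMUSG00000023942, chr17:45585200-45599606, minus strand) read 42.3, 53.9 and 54.7 CPM in control iNK and 32.0, 18.7, 28.9 and 27.2 CPM in cKO iNK. The control libraries were all above the cKO libraries. The log2 fold change was -0.91 (SE 0.23, unadjusted p = 0.000393), which missed the threshold after adjustment (adjusted p = 0.0742). It passed in 5 of 15 alternatives, DESeq2 among them, with adjusted p from 0.00538 to 0.294. In iILC1 the controls read 26.0, 19.5 and 21.3 CPM and the cKO libraries 21.0, 30.3, 18.6 and 19.6 CPM, and differed by 0.01 on the log2 scale (95% interval -0.47 to 0.50, adjusted p = 0.998). The effect in iILC1 exceeded that in iNK by 0.93 (SE 0.33, unadjusted p = 0.00898), and this difference was not called (adjusted p = 0.705).

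Between cell types in control mice, Slc29a1 was 2.27-fold lower in iILC1 (log2 fold change -1.18, SE 0.25, adjusted p = 0.00553). It was called in 13 of 14 alternatives, and not without control iILC1 replicate 2 (adjusted p = 0.0615). In cKO mice, where iNK had 26.7 ± 5.67 CPM (n = 4) and iILC1 22.4 ± 5.35 CPM (n = 4), the log2 fold change was -0.25 (adjusted p = 0.886). A gene on the other strand, Gm17080, overlaps 186 exon bases of Slc29a1 and had a mean of 1.4 counts per library against 202. These counts cannot show from which gene reads in the shared bases came, since the library kit does not mark strand.

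RefSeq (GRCm38.p6) gives 8 promoter windows of 300 bases for Slc29a1, which starts at several places. They were searched on both strands, with the other windows of the uptake genes, for the E-box CACGTG bound by MYC and MAX, the palindrome TTCNNNGAA bound by STAT5, which acts below the IL-15 receptor, and the element TGATGNAA bound by ATF4 with a C/EBP partner. Windows were held for 6 of the 9 genes (16 windows), and not for Slc7a5, Slc1a5 and Slc38a1. The E-box was in 1 window, of Slc29a1, and in 7.15% of all 32851 windows. That window is shown because Slc29a1 differed between the cell types. It covers chr17:45595197-45595496 on the minus strand, with the E-box in capitals.
Slc29a1 window: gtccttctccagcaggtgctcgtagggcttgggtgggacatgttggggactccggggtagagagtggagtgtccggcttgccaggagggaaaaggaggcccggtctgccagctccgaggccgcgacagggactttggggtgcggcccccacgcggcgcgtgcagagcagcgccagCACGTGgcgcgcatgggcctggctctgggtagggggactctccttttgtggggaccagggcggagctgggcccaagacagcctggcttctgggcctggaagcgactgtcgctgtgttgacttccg
The STAT5 palindrome was in 1 window, of Slc7a1, and in 8.3% of all windows. The ATF4 element was in none of the 16 windows and in 3.97% of all. A match is a run of letters and not evidence of binding.

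Among 19 tested genes for nucleoside carriers and salvage, 0 passed between genotypes in either cell type with edgeR (6 at an unadjusted p under 0.05 in iNK, 1 in iILC1), and with DESeq2 4 were lower in cKO iNK and 0 differed in iILC1. In control mice 3 were lower in iILC1 and 0 higher: Slc43a3, a purine nucleobase carrier (log2 -1.21, adjusted p = 0.00433), and the salvage kinases Dck (log2 -1.16, adjusted p = 0.00865) and Uck2 (log2 -0.93, adjusted p = 0.0205). Slc43a3 in control iILC1, at 4.08 CPM per kb, lay under the receptor genes' 95th percentile of 4.87. In cKO mice only Ada, the adenosine deaminase, passed, higher in iILC1 by 1.29 (adjusted p = 0.000157). The gene most like Slc29a1 over the 14 libraries was Phgdh (Pearson r = 0.935), the first enzyme of serine synthesis, followed by Pidd1 (0.934) and Mcm2 (0.919), a subunit of the replicative helicase.

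The largest difference between cell types among the 9 genes in cKO mice was that of Tfrc (ENSMUSG00000022797, chr16:32608920-32632794, plus strand). It read 46.2, 47.8 and 61.1 CPM in control iNK, 47.7, 44.9, 56.8 and 46.2 CPM in cKO iNK, 27.5, 28.8 and 30.4 CPM in control iILC1, and 18.7, 19.0, 25.3 and 24.8 CPM in cKO iILC1. Every iNK library was above every iILC1 library. iILC1 were lower by a log2 of -1.16 in cKO mice (SE 0.19, adjusted p = 0.000162, 2.23-fold) and by -0.84 in control mice (SE 0.22, adjusted p = 0.0295, 1.79-fold). The call in cKO mice held in all 16 alternatives run. The call in control mice was lost whenever any 1 of the 6 libraries was left out (adjusted p = 0.0557 to 0.14), and its adjusted p ran from 0.00127 to 0.14 over 14 alternatives.

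Tfrc did not follow the genotype in iNK, where its log2 fold change was -0.08 (95% interval -0.50 to 0.33, adjusted p = 0.95). In iILC1 all 4 cKO libraries lay below the 3 controls, with a log2 fold change of -0.40 (SE 0.21, unadjusted p = 0.0655, adjusted p = 0.979). Neither effect was called, and nor was their difference (-0.32, adjusted p = 0.773). Tfrc is abundant in erythroid precursors, and 2 of 12 erythroid markers were higher in cKO iNK, the globins Hbb-bs and Hbb-bt. The summed level of all 12 markers was 18.5 to 58.4 CPM in control iNK and 95.7 to 644 CPM in cKO iNK. The part of such cells in the Tfrc level was not tested.

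Tfrc messages carry hairpins after the coding sequence, the iron-responsive elements, that hold the message stable when the iron regulatory proteins bind them in iron-poor cells. They are shown because they are the sequence through which iron is known to set the level of this gene. A search of the transcript Tfrc-201 (4890 bases, GENCODE, GRCm38) for an unpaired c, a stem of 5 pairs and the loop CAGTGN found 4, each printed over 29 bases, with the 6 bases of the loop in capitals. They lie on the plus strand of chromosome 16 at chr16:32631219-32631247, chr16:32631598-32631626, chr16:32631663-32631691 and chr16:32631710-32631738.
Element 1: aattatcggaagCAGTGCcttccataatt
Element 2: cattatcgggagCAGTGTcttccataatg
Element 3: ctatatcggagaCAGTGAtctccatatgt
Element 4: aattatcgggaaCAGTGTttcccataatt
The genes of the 2 proteins that bind such elements did not differ by a called amount: Ireb2 read 64.4 to 98.2 CPM in the control libraries and Aco1 58.6 to 78.9 CPM.

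Of 21 other genes for iron uptake, storage and control, none passed between genotypes (0 of 21 in either cell type with edgeR or DESeq2, 4 and 5 at an unadjusted p under 0.05). Between cell types, 3 passed in each genotype with edgeR, in the same directions (2 higher and 1 lower). DESeq2 called 2 higher and 3 lower in control mice and 3 higher and 1 lower in cKO mice. Steap3, the reductase that acts on iron released from transferrin in endosomes, read 29.9 to 35.5 CPM in control iNK and 9.71 to 17.3 CPM in control iILC1 (log2 -1.30, adjusted p = 0.0106), and in cKO mice its log2 fold change was -1.58 (adjusted p = 0.000111). Slc40a1 (ferroportin), the iron exporter, was higher in iILC1, by 1.76 in control mice (adjusted p = 0.0202) and 3.23 in cKO mice (adjusted p = 9.33e-07). Hmox1, the haem oxygenase that frees iron from haem, was higher by 2.17 in control mice (adjusted p = 0.00526) and 3.90 in cKO mice (adjusted p = 1.58e-07). The ferritin chains Fth1 and Ftl1 were not called.

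**Figure D3:**
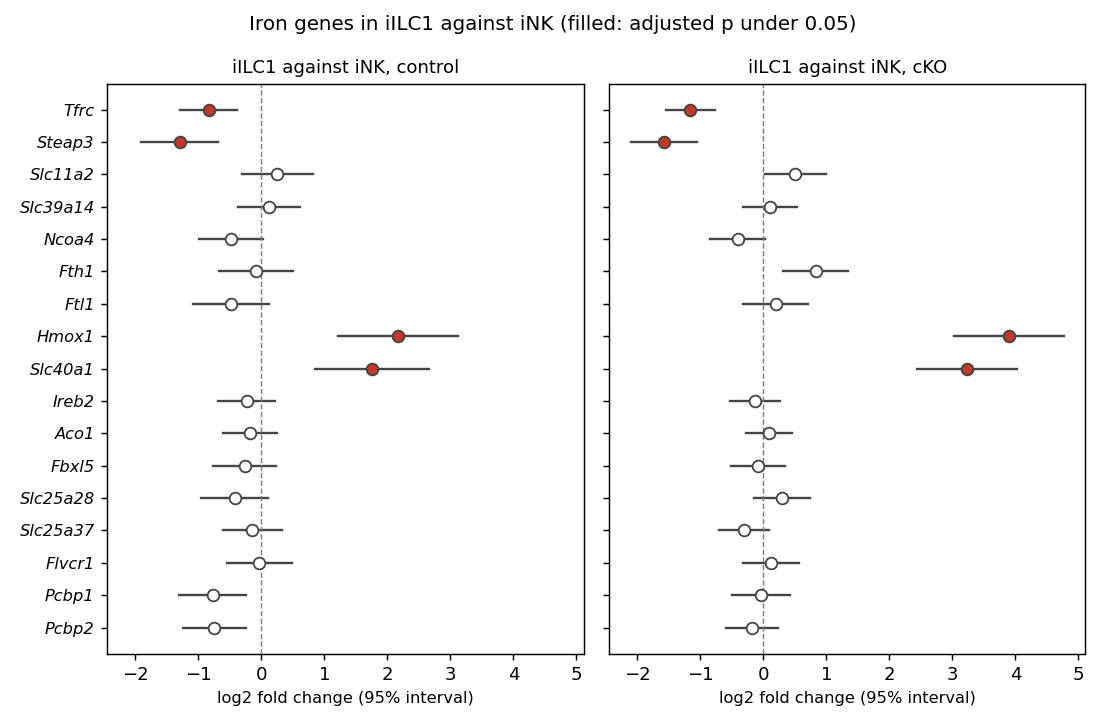
Log2 fold change of Tfrc and other iron genes in iILC1 against iNK, in control (left) and cKO (right) mice, with 95% intervals; filled points passed an adjusted p under 0.05. Tfrc and Steap3 lie below 0 and Hmox1 and Slc40a1 above 0 in both genotypes, and the other genes drawn did not pass. Of these, Tfrc and Steap3 in iILC1, Hmox1 in cKO iNK and Slc40a1 outside cKO iILC1 were under the receptor genes' 95th percentile per kb.

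Hmox1 and Slc40a1 are also abundant in macrophages that clear red cells. In a list of 10 macrophage markers, chosen after these values were seen, 2 were higher in iILC1 than iNK in control mice (C1qb and Mrc1) and 6 in cKO mice. Their summed level was 65.8 to 111 CPM in control iNK, 59.5 to 116 in cKO iNK, 141 to 184 in control iILC1 and 141 to 292 in cKO iILC1. In the cKO iILC1 libraries, Hmox1 read 142, 64.5, 35.0 and 59.1 CPM and Slc40a1 103, 31.2, 25.0 and 48.3 CPM, both highest in replicate 1. The part of macrophages in Hmox1 and Slc40a1 was not tested. Steap3 and Tfrc moved the other way.

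Across the 9 genes, all 9 estimates for iILC1 against iNK in control mice lay below 0, with a median log2 fold change of -0.56 beside 0.16 over all genes. With the background sum as a covariate the median was -0.31 and 8 lay below 0: Slc38a1 moved from -0.56 to -0.06, Slc1a5 from -0.49 to -0.09, Slc38a2 from -0.70 to -0.31 and Slc3a2 from -0.34 to 0.00356. 2 of 9 were called, Slc29a1 and Tfrc, both lower, beside 3.91% of all genes called and 3% called lower. Slc7a5 was called as well with the covariate. Over all genes the calls were 246 higher and 810 lower, and 370 higher and 462 lower with the covariate. The libraries did not overlap for 6 of the 9 (Slc7a5, Slc1a5, Slc38a2, Slc7a6, Slc29a1 and Tfrc), beside 25% of all genes. In cKO mice 8 of 9 estimates lay below 0 (7 with the covariate), with a median of -0.20 beside 0.01. Tfrc alone was called, beside 3.42% of all genes and 1.68% called lower, and it alone did not overlap, beside 6.61% of all genes. For the difference between the cell types' genotype effects, 0 of 9 were called, beside 0.0778% of all genes (1 of 9, Slc29a1, at an unadjusted p under 0.05, and 0 with DESeq2). These are levels in bulk samples, in which fewer cells that express a gene and less RNA per cell cannot be told apart.

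**Figure D4:**
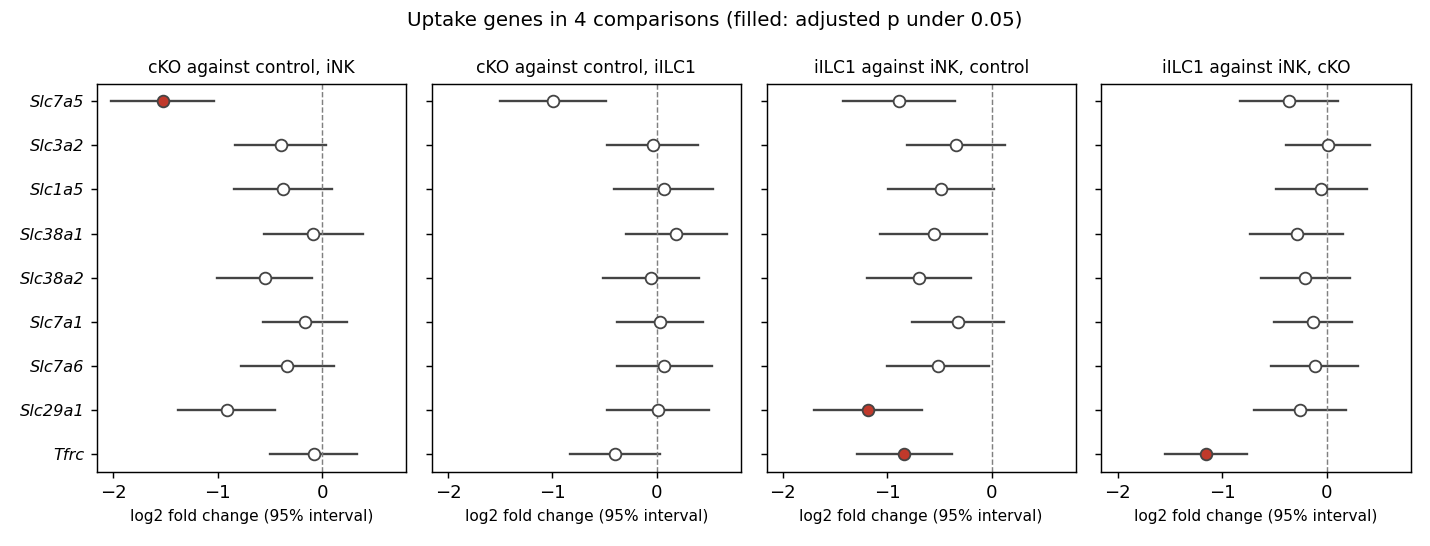
Log2 fold change of the 9 uptake genes with 95% intervals in 4 comparisons, cKO against control in iNK and iILC1 and iILC1 against iNK in control and cKO mice; filled points passed an adjusted p under 0.05. The passing points are Slc7a5 in the first panel, Slc29a1 and Tfrc in the third and Tfrc in the fourth, all below 0.

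Other cells' markers moved in the same comparisons. B cell markers summed to 60.3 to 78.2 CPM in control iNK and 230 to 306 CPM in cKO iNK, with 6 of 10 called higher. T cell markers summed to 77.3 to 103 CPM in control iNK and 166 to 308 CPM in control iILC1, with Cd3e, Cd3g, Trac and Cd5 higher (4 of 7 tested), although both gates excluded CD3. In cKO iILC1 the T cell sum was 90.4 to 142 CPM, and 1 of 7 was called lower than in control iILC1 (3 with DESeq2), the comparison in which the Slc7a5 groups did not overlap. B cell markers summed to 65.8 to 114 CPM in cKO iILC1, with 6 of 10 lower than in cKO iNK, the comparison in which Tfrc was called. Cd8a averaged under 1 CPM in all groups but control iILC1. Myeloid markers summed to 117 to 381 CPM in control iNK and 63.7 to 81.6 CPM in control iILC1. Of 9 tested, 1 was higher and 1 lower in control iILC1. 8 had an unadjusted p under 0.05, and the median log2 fold change of the 9 was -3.25. In cKO iNK and cKO iILC1 they summed to 31.4 to 497 and 78.1 to 380 CPM. Between genotypes in iILC1, 0 of 9 were called (6 at an unadjusted p under 0.05, median 1.96). The part of these cells in the levels of the uptake genes was not tested.

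Genes of cell division were counted in the same comparisons. Of 20, 5 fell in cKO iNK (10 with DESeq2, 19 at an unadjusted p under 0.05). Between the genotypes in iILC1 none was called (0 of 20 with edgeR, 1 with DESeq2, 5 at an unadjusted p under 0.05). In control and cKO mice, 19 and 13 were lower in iILC1 than iNK. Their summed level ran from 2670 to 3970 CPM in control iNK, 1430 to 1900 in cKO iNK, 989 to 1360 in control iILC1 and 805 to 1040 in cKO iILC1. Mki67, a marker of cycling cells, fell by 1.21 on the log2 scale in cKO iNK (adjusted p = 0.0354). In cKO mice 13 of these 20 genes and 1 of the 9 uptake genes were called between cell types, with median log2 fold changes of -1.28 and -0.20. In control mice 19 and 2 were called, with medians of -1.56 and -0.56. Between genotypes the medians were -0.89 and -0.37 in iNK and -0.35 and 0.01 in iILC1. The part of cell division in the levels of the uptake genes was not tested.

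The other amino acid carriers gave no call. Of 25 other amino acid carriers, none passed in any comparison (0 of 25 with edgeR and with DESeq2 in each, and 0 to 5 at an unadjusted p under 0.05). 21 of them stayed at or below the receptor genes' 95th percentile in all 4 groups, so that Slc6a6, Slc38a7, Slc38a10 and Slc43a2 were the only ones above it, named here after their values were seen. None of the 34 genes of amino acid sensing by mTORC1 passed with edgeR in any comparison (1 to 9 at an unadjusted p under 0.05), while DESeq2 called 4 lower in iILC1 of control mice and 0 in the other comparisons, and 29 were above the receptor genes in all groups. Of 8 glucose and lactate carriers, 0 passed between genotypes with edgeR (2 in iNK and 0 in iILC1 at an unadjusted p under 0.05, and 1 and 0 with DESeq2). In control mice 2 were lower in iILC1, Bsg, the partner chain of lactate carriers (log2 -0.96, adjusted p = 0.0386), and, at the threshold, the lactate carrier Slc16a1 (log2 -0.88, adjusted p = 0.04998). In cKO mice 3 were higher in iILC1: Slc16a3, Slc16a6 and Slc2a8. Slc16a3 was at or below the receptor genes' level in all groups. Slc16a6 was below it in cKO iNK, at 3.26 CPM per kb beside a 95th percentile of 4.58.

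In the amino acid response driven by ATF4, 1 of 22 genes passed in iNK (4 with DESeq2): Psat1, of serine synthesis, which fell from 94.2, 108 and 120 CPM in control to 63.9, 56.2, 50.7 and 62.9 CPM in cKO (log2 -0.88, adjusted p = 0.031). 5 of 22 were lower in iILC1 of control mice, among them Phgdh (log2 -1.33, adjusted p = 0.000315), Shmt2 (log2 -0.99, adjusted p = 0.00698) and Psat1 (log2 -0.96, adjusted p = 0.00748). In cKO mice Ddit3 passed with edgeR (log2 -1.01, adjusted p = 0.0252), 1 of 22, and 2 with DESeq2. Trib3, Chac1, Asns and Pycr1, 4 of the 22, were at or below the receptor genes' 95th percentile in all groups. Of 14 regulators, which include Myc, Hif1a, Stat5a and Stat5b, none passed between genotypes (0 of 14 with edgeR or DESeq2 in either cell type, 1 and 0 at an unadjusted p under 0.05). Between cell types, 1 regulator was lower in iILC1 of control mice and 2 in cKO mice (3 in each with DESeq2), and 0 were higher. Prdm1, a repressor of lymphocyte growth genes, was lower in both genotypes, by a log2 of -1.44 in control (adjusted p = 0.000447) and -0.92 in cKO (adjusted p = 0.00567). Jak1, a kinase that carries the signal of the IL-15 receptor, was called lower in cKO mice alone (log2 -1.05, adjusted p = 0.0206). Its levels per kb in iNK and iILC1 were 553 and 267 in cKO mice and 473 and 230 in control mice.

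The 9 genes did not form 1 pattern over the 14 libraries. Pearson r between pairs, on log2 CPM, ran from 0.03 (Slc7a5 and Slc38a1) to 0.87 (Slc1a5 and Slc38a2), and was 0.38 between the LAT1 chains Slc7a5 and Slc3a2. These are descriptions over libraries that share depth and background. Searched against 10339 genes at 10 CPM or more, Slc7a5 was most like E2f8 (r = 0.928), a cell cycle factor, Gzmb (0.921), which encodes granzyme B, and Mast2 (0.911). Gzmb had 133, 157 and 116 CPM in control iNK and 15.0 to 27.6 CPM in cKO iNK. Tfrc was most like Slamf6 (0.968), Kcnk5 (0.947) and Lair1 (0.947). Slc1a5 was most like Map2k3, Capzb and Pcbp1 (0.974 to 0.982) and Slc38a1 most like Lbr (0.99) and Stxbp2 (0.987). Slc38a2 followed Ehd4, Taf2 and Pqlc3 (0.94 to 0.944), Slc3a2 followed Nop14, Ndel1 and Bin1 (0.892 to 0.92), and Slc7a6 followed Heatr3, Dis3 and Spidr (0.915 to 0.96). Slc7a1 had the weakest matches, Rpl6l, Pidd1 and Eipr1 (0.804 to 0.842).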

How the data were processed

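RNA of 14 samples was amplified by SMART-Seq v4 and made into Nextera XT libraries, per the labels' protocols, a kit that does not mark strand. The deposited table holds raw counts per gene with each gene's exons. Per the submitters' processing notes, the build was mm10 and the tools were featureCounts (Subread 1.6.5), HISAT2 2.1.0 and Trimmomatic 0.33. All 14 libraries were fitted together in edgeR 4.0.16 (R 4.3.3) with 1 mean per group, TMM scaling, filterByExpr (minimum count 10, minimum total 15) and the quasi-likelihood F test, two-sided, with Benjamini-Hochberg adjustment over 26990 genes and a threshold of 0.05. The scripts were tested on simulated data. Symbols were matched for 98.0% of gene IDs. CPM per kb divides by the exon length in the table. Libraries of a group differed by more than counting noise and were each counted once.

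The genes and lists were chosen with earlier results of these data known. Named genes are the 9, up to 3 called genes per list and comparison by smallest p, Il15, Mki67, and for each of the 9 the 3 genes with the highest Pearson r of log2(CPM + 1), of which 1 is not reported here. Alternatives were DESeq2 1.42.0, its size factors in edgeR, other filters, only the groups compared, a replicate block, a background covariate and left-out libraries. The labels give no batch.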

Additional observations from a re-analysis of the deposited data

How the results depend on the processing

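The fall of Slc7a5 in cKO iNK and the lower Tfrc in cKO iILC1 against cKO iNK were called under every alternative run (15 and 16). The number of uptake genes called lower in cKO iNK was 2 in place of 1, Slc29a1 being the second, with the background covariate and DESeq2. It was also 2, Slc29a1 included, with the filter at 5 CPM and with only the groups compared. Without control iNK replicate 1 and cKO iILC1 replicate 1 it was again 2, Slc29a1 included. Between cell types in control mice it was 4 in place of 2 with DESeq2 and with the replicate block, and 0 to 2 with 1 library left out. Between genotypes in iILC1 it was 1 in place of 0 with DESeq2 and with the replicate block (Slc7a5, adjusted p = 0.0396 and 0.0305). The replicate block also called Slc7a5 and Slc38a2 between cell types in control mice (adjusted p = 0.00549 and 0.0326). The labels do not say that a number pairs libraries. Same-numbered libraries' deviations correlated at -0.121 to 0.459, those numbered 1 at 0.108 to 0.459, so that not every pair was above 0.1. The best match had the same number in 17 of 38 cases. How many matches to expect without pairing was not computed.

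Of all genes, 110 were called between genotypes in iNK. The count was 356 with the background covariate, 294 with DESeq2 (70 higher and 224 lower, against 42 and 68), 210 with the filter at 5 CPM, 191 with no filter, 220 with only the groups compared, 175 with the replicate block and 63 to 87 with 1 library left out. In iILC1, 13 became 53 with the covariate, 46 with DESeq2 (26 higher and 20 lower, against 6 and 7), 30 with the filter at 5 CPM and with the block, 47 with no filter and 4 to 22 with 1 library left out. Between cell types in control mice, 1056 became 2180 with DESeq2, 1593 with the filter at 5 CPM, 1696 with only the groups compared, 2212 with the block and 394 to 1701 with 1 library left out. In cKO mice, 923 became 1640 with the covariate. For the difference of effects, 21 became 32 with the covariate, 37 with DESeq2 (18 higher and 19 lower, against 6 and 15), 56 with no filter, 40 with the block and 10 to 33 with 1 library left out.

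Estimates that changed sign were small and uncalled, and the cause was not tested. With the background covariate, log2 fold changes became 0.0442 for Slc1a5 between cell types in cKO mice and 0.00356 for Slc3a2 in control mice. The genotype effect in iILC1 became -0.0821 for Slc1a5, -0.00832 for Slc29a1 and -0.00547 for Slc7a6, that in iNK 0.13 for Slc38a1, and its difference between cell types -0.104 for Slc38a1. Without control iNK replicate 1 and cKO iILC1 replicate 1, the genotype effects in iILC1 were -0.139 for Slc1a5 and -0.0248 for Slc7a6. Those of Slc38a1 were 0.0531 in iNK and -0.0494 for the difference, and Slc3a2 between cell types in cKO mice was -0.0865. With the filter at 5 CPM the genotype effects in iILC1 were -0.0184 for Slc1a5, -0.05 for Slc29a1, -0.0288 for Slc7a1 and -0.00762 for Slc7a6. With only the groups compared they were -0.0274 for Slc29a1 and -0.00627 for Slc7a1. With no filter, Slc3a2 between cell types in cKO mice was -0.000808. With 1 library left out, the genotype effect in iILC1 ran from -0.143 to 0.215 for Slc1a5, -0.188 to 0.146 for Slc29a1, -0.197 to 0.0393 for Slc38a2, -0.144 to 0.0489 for Slc3a2, -0.0665 to 0.126 for Slc7a1 and -0.0304 to 0.143 for Slc7a6. In iNK it ran from -0.24 to 0.0662 for Slc38a1 and -0.161 to 0.0673 for Tfrc, and between cell types in cKO mice from -0.219 to 0.0529 for Slc1a5, -0.0442 to 0.124 for Slc3a2 and -0.232 to 0.0491 for Slc7a6. The lowest count of an uptake gene in any library was 82, for Slc7a5 in control iILC1.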
